A study of Mus musculus with 39 samples.

Results

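Leukemic pre-B cells were compared with normal pre-B cells of mouse bone marrow on 24 of the 39 arrays of the series. The arrays were chosen by their labels: 16 whose cell type is given as leukemic pre-B and 8 titled pre-B1 to pre-B8. All 24 were sorted with the same surface gate, which keeps cells with B220 and without CD43, IgM or IgD. The normal cells came from adult mice with no treatment or genotype given. The leukemic cells came from leukemic mice, and the series title names the leukemia as MLL-AF4. For 5 of them (A992, A1322, A1507, 270 and A46) pIpC, a synthetic RNA that mimics a virus and is widely used to switch on Mx1-Cre, was given before the leukemia. Array 116 differs in its description, which names a Mll-AF4stop knock-in mouse and does not state leukemia. Strain and the driver of recombination are not given in the sources used here. Each leukemic array has its own number in its title and is described as coming from a mouse, but nothing says that the 8 normal arrays came from separate animals. The p-values then reflect only how these samples spread, which may be technical in part.

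A pre-B cell has joined its immunoglobulin heavy chain genes, has divided under signals from the pre-B receptor and interleukin-7, and then slows down while it rearranges a light chain. MLL-AF4 joins the chromatin regulator MLL to an elongation factor and keeps genes of early blood cells on. The description here concerns the functions around these programs: growth and biosynthesis, the cell division machinery, signalling, adhesion and the remaining traits of the B lineage.

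RNA was amplified from 20 ng per sample and hybridised to Affymetrix arrays, and levels are given as log2 of the deposited intensity, so that a difference of 1 is a doubling. Array medians lay between 6.36 and 6.69. The accessions form 2 runs, with 12 leukemic and 4 normal arrays in run 1 and 4 and 4 in run 2, and every difference below is leukemic minus normal with the run as a covariate. Levels of single arrays, and counts of arrays beyond every normal array, are given without a correction for the run. Intensities of different genes are not compared with each other. A level under 4.04, the 20th percentile of the gene means, is called background. Mean levels of an array come from a mixture of cells, in which fewer cells of a type and less RNA per cell cannot be told apart.

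The library labelled leukemic pre-B 122 stood apart from the other 15 leukemic arrays in the genes of the B lineage. Of 11 measured B-lineage identity genes, 7 were lower on array 122 than on each of the other 23 arrays. Cd79a, a signal chain of the B-cell receptor, lay between 10.66 and 12.04 on the other leukemic arrays and was lowest on array 122. The lineage factor Ebf1 was at 7.27 against 10.95 to 11.56, the interleukin-7 receptor Il7r at 8.58 against 11.01 to 12.13, and Vpreb3 at 7.49 against 11.87 to 12.43. Some genes of stem and myeloid progenitor cells were high on the same array. Cd34 was at 10.22 there and between 2.81 and 6.50 on the other leukemic arrays, and Spn, which encodes the CD43 that the gate removes, was at 7.45 against 4.61 to 6.30. The granule enzymes Mpo (12.03) and Ctsg (12.35) were above every other array of both groups. Of the neutrophil and monocyte markers 5 had this position on array 122, and 11 lay within the range of the other 23 arrays. The mean of 16 neutrophil and monocyte markers was 9.47 on array 122, 4.91 to 8.36 on the other leukemic arrays and 7.05 to 9.09 on the normal arrays.

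The other 15 leukemic arrays had mean B-lineage levels closer to the normal ones than array 122 (8.51), but mostly below them. Their mean over the 11 identity genes lay between 9.92 and 10.79, against 10.77 to 11.21 on the normal arrays, and 14 of the 15 lay below every normal array. Array 116, the one whose description does not state leukemia, had a mean of 10.01. Counts without array 122 and without array 116 were computed for every gene list and are given where they differ by more than 1.5 times.

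**Figure D1:**
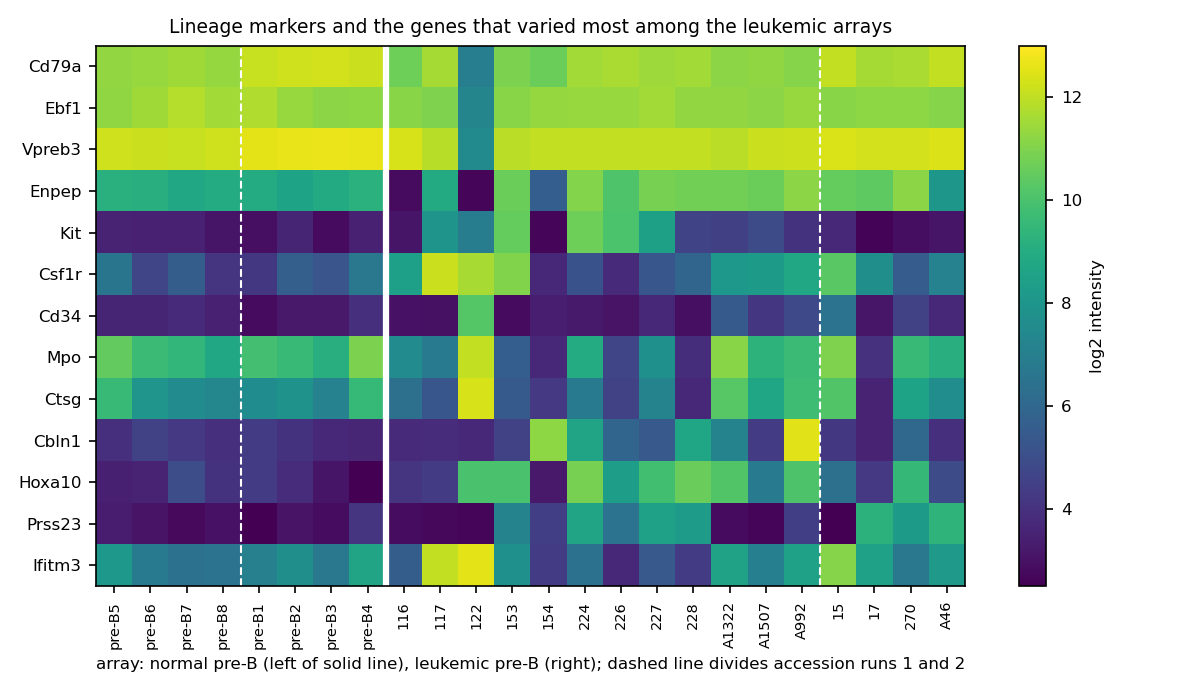
Levels (log2 intensity, colour scale) of 3 B-lineage genes, Kit, Cd34 and the 8 genes that varied most among the leukemic arrays, with 1 column per array (8 normal, 16 leukemic). Cd79a, Ebf1 and Vpreb3 were low on leukemic array 122 alone, where Cd34, Mpo, Ctsg and Ifitm3 were high, and Enpep was at 2.63 there and at 2.80 on array 116.

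With the run as a covariate, 2756 of 12393 genes (22.2%) differed at an adjusted p under 0.05 (limma, Benjamini-Hochberg), of which 1547 (12.5%) were higher and 1209 (9.76%) lower in the leukemic cells. The change was at least 2-fold in 413 genes that were higher and in 375 that were lower. In 93 genes (0.750%) all 16 leukemic arrays lay above every normal array, and in 99 (0.799%) all 16 lay below. Without array 122, 1625 genes (13.1%) were higher and 1305 (10.5%) lower. The difference between the 3' and 5' Gapdh control probe sets, 1 measure of RNA length, was 0.84 to 1.01 on leukemic and 0.91 to 1.26 on normal arrays of run 1, and 1.05 to 1.13 and 1.17 to 1.41 in run 2. For the actin control the ranges of the groups overlapped in each run, and its medians were 1.30 (leukemic) and 1.29 (normal) for run 1 and 0.86 and 0.79 for run 2. With the Gapdh difference as a further covariate 768 genes (6.20%) were higher and 782 (6.31%) lower. With the mean of the neutrophil and monocyte markers as a further covariate 1718 (13.9%) were higher and 1231 (9.93%) lower. The median difference over all genes was -0.02, and a test of whether differences depended on the run called 0 genes by limma (287 at an unadjusted p under 0.05).

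**Figure D2:**
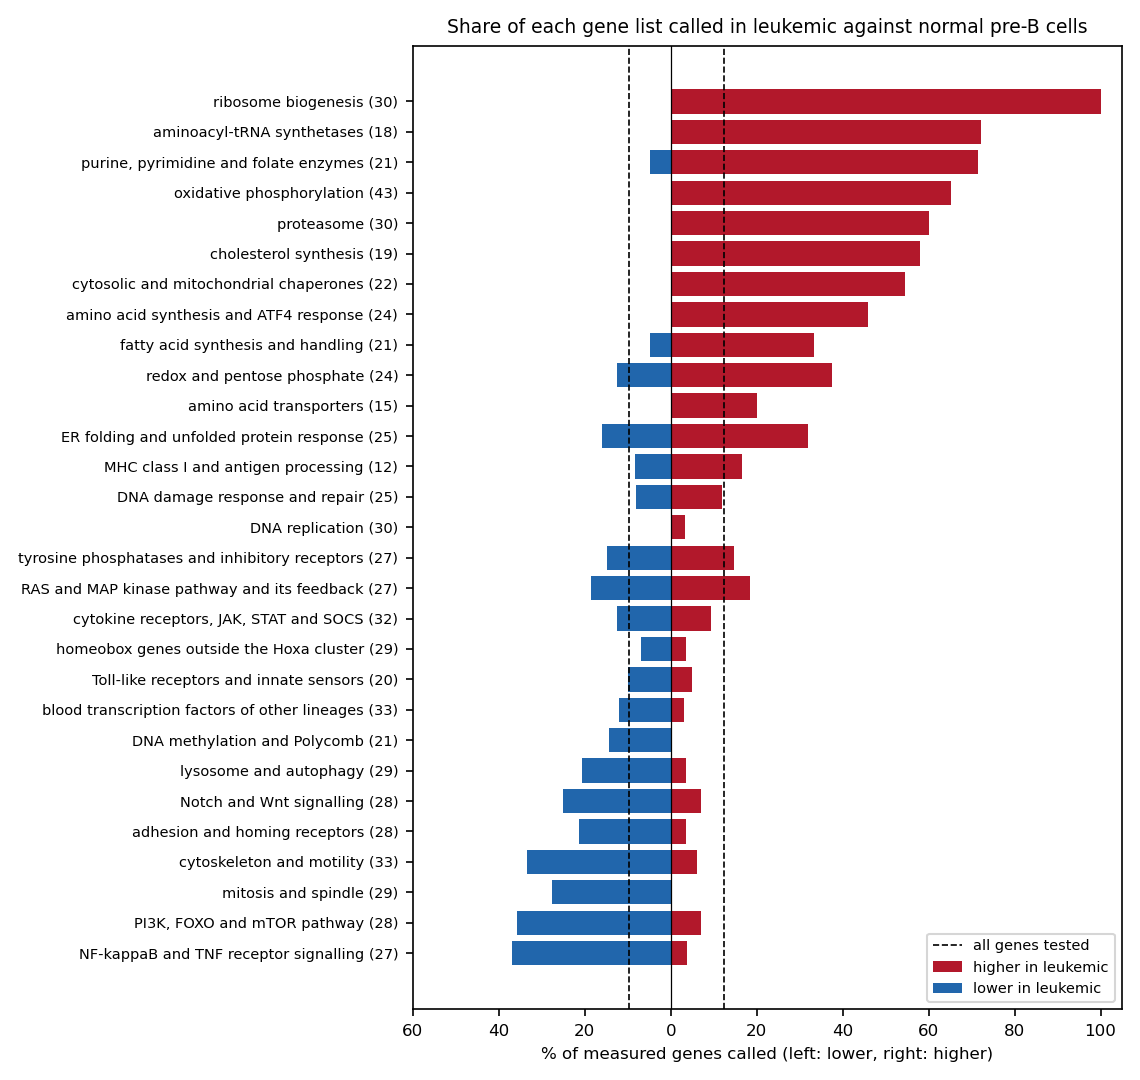
Percentage of the measured genes of 29 functional lists (number of genes in brackets) called higher (right, red) or lower (left, blue) in leukemic than in normal pre-B cells. Dashed lines give the same percentages over all genes tested, 12.5% higher and 9.76% lower, and ribosome biogenesis stands at 100% higher.

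Genes that build ribosomes were higher in the leukemic cells throughout the list. All 30 measured ribosome biogenesis genes rose, by 0.38 to 2.07, with a median difference of 1.03. The list mean was 9.57 at the lowest, 10.00 at the median and 10.42 at the highest of the 16 leukemic arrays, and 8.69, 9.04 and 9.45 on the normal arrays, so that the groups did not overlap. In 5 of the 30 genes all 16 leukemic arrays lay above every normal one. The count was 30 without array 122 and 28 with the Gapdh difference as a covariate.

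Polr1b, a subunit of the polymerase that transcribes ribosomal RNA, had levels of 5.58, 6.63 and 7.88 (lowest, median and highest) on the leukemic arrays, and its normal median and highest value were 4.70 and 6.32. It rose by 2.07 (SE 0.21, adjusted p = 8.84e-08, limma), with 10 of 16 leukemic arrays above every normal array. Rrp12, which helps export the ribosomal subunits, rose by 2.04 (SE 0.28) on 14 of 16 arrays. Rrp1b, a nucleolar factor of ribosomal RNA processing, was at 9.97, 10.57 and 11.00 on leukemic arrays and 8.32, 9.05 and 9.53 on normal arrays. The groups of Rrp1b did not overlap (1.56, SE 0.14, adjusted p = 2.67e-08, limma). Gnl3 encodes nucleostemin, a GTPase of the nucleolus, and was at 10.60, 11.50 and 12.12 against 9.61, 9.99 and 10.37, again with no overlap (1.56, SE 0.12). Snhg16, a host gene of small nucleolar RNAs, rose by 2.11 and Mettl1, which methylates transfer RNA, by 2.02. Their leukemic medians were 8.26 and 7.10, against 6.02 and 5.66 in the normal cells.

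**Figure D3:**
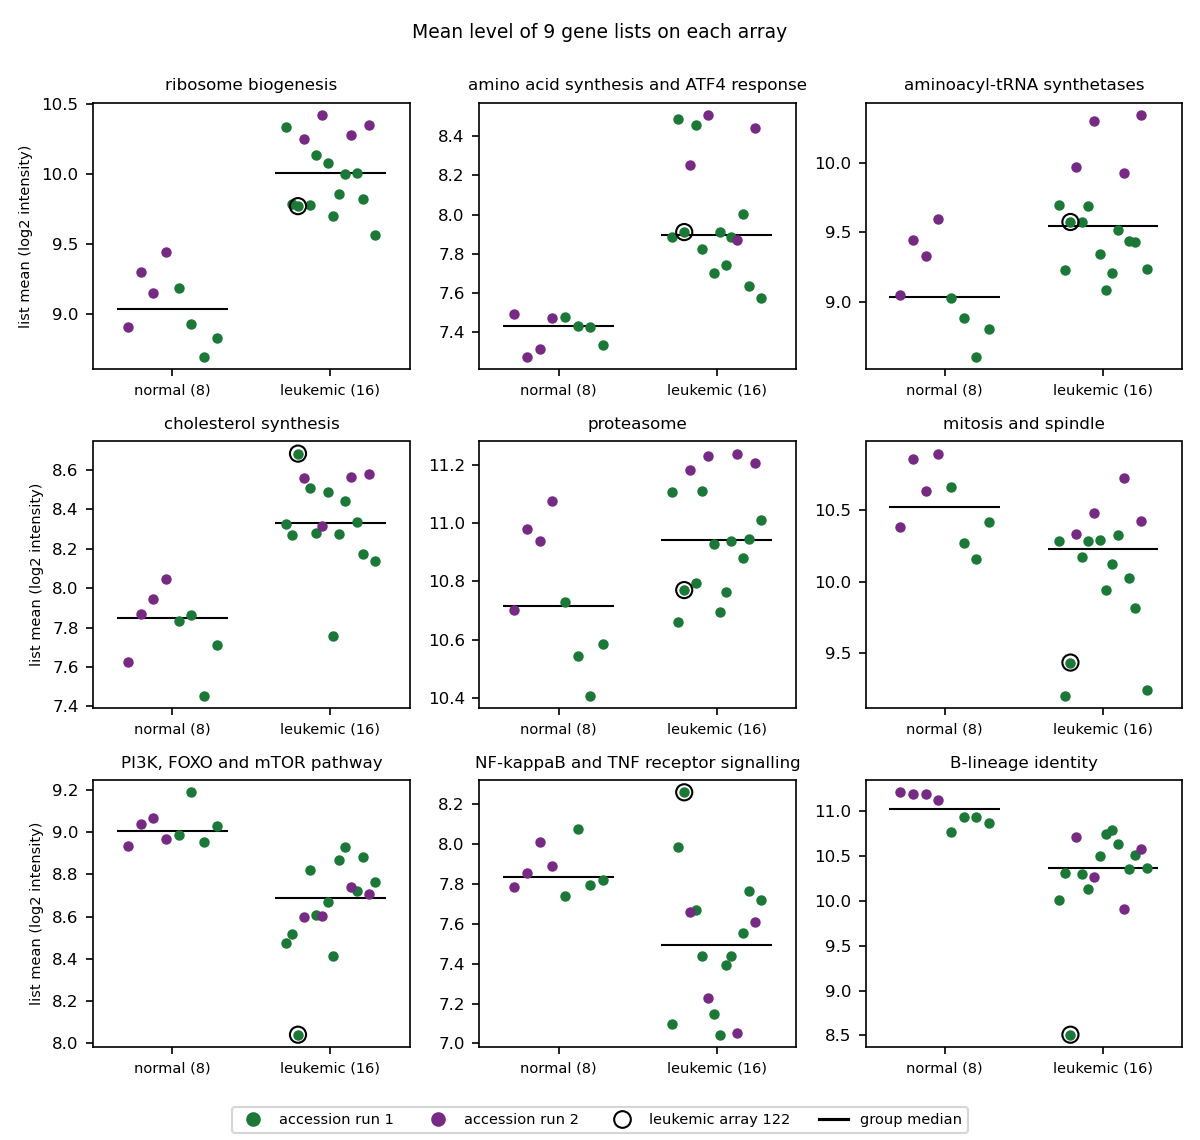
Mean level (log2 intensity) of 9 gene lists on each of the 8 normal and 16 leukemic arrays, coloured by accession run, with the group median as a line and leukemic array 122 circled. The leukemic arrays lay above every normal array for ribosome biogenesis and for amino acid synthesis. For the PI3K, FOXO and mTOR list they lay below every normal array, with the highest at 8.931 against a lowest normal value of 8.934.

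Genes that make amino acids and answer to the transcription factor ATF4 were raised in part. ATF4 is translated when amino acids run short or proteins misfold, and turns on enzymes, transporters and transfer RNA synthetases. Of 24 measured genes 11 rose and 0 fell, against 12.5% of all genes higher, and the median difference was 0.55. The list mean was above every normal array on all 16 leukemic arrays (7.58, 7.90 and 8.51 against 7.27, 7.43 and 7.50). Without the run covariate 7 rose. Shmt2, the mitochondrial enzyme that turns serine into glycine, was at 9.01, 9.77 and 10.51 on the leukemic and 6.25, 7.75 and 8.50 on the normal arrays. The groups did not overlap, and Shmt2 rose by 2.12 (SE 0.22, adjusted p = 1.66e-07, limma). Cth, which makes cysteine, rose by 2.31 (SE 0.33) on 14 of 16 arrays, from a normal median of 4.51 to 6.69. Bcat1, which transfers the amino group of branched-chain amino acids, rose by 1.92 (SE 0.38) on 15 of 16 arrays, and array 122 was the exception at 7.84, below every normal array. Atf4 itself did not pass (-0.01, SE 0.11, adjusted p = 0.98, limma), nor did the stress gene Ddit4 (0.41, SE 0.25, adjusted p = 0.28), which was called without array 116 (0.52).

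The same letters recurred near the start sites of several raised members. The motif TGATGNAA, the core of the amino acid response element, was searched on both strands in 300-base promoter windows of RefSeq (GRCm38.p6). The windows hold 250 bases before the start site and 50 after it, and matched 9882 of the 12393 genes. The motif was present in 309 of these genes (3.13%), in 8 of 23 amino acid and ATF4 genes (34.8%) and in 5 of 11 aminoacyl-tRNA synthetases (45.5%). It was 1 of 11 motifs searched, all chosen after the values had been seen, and the ATF4 list contains known ATF4 targets, so its share is not independent of the motif. All 5 synthetases with the motif rose (Aars, Gars, Iars, Tars and Yars), against 13 of 18 in the whole list. Of the 8 ATF4 genes with it 4 rose (Asns, Got1, Trib3 and Chac1), against 11 of 24 in the whole list. Of 10 amino acid transporters with a window, 3 had the motif (30%), and 0 of these rose. Whether the motif goes with the rise was not tested. A match describes the letters and says nothing about binding. In Iars, Yars and Trib3 no match lay wholly before the start site. For the raised genes with such a match, 3 ATF4 genes and 3 synthetases, the match and up to 30 bases on each side are shown. They are read 5′ to 3′ on the strand of the gene. Capitals mark the match, which lies on the gene's own strand in Asns and on the opposite strand in the other 5.
Asns (chr6:7693210-7693262, minus strand): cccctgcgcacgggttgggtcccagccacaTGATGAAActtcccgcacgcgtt
Got1 (chr19:43524670-43524737, minus strand): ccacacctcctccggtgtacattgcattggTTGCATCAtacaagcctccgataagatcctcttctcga
Chac1 (chr2:119351019-119351086, plus strand): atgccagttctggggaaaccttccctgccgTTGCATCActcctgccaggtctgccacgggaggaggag
Aars (chr8:111033700-111033767, plus strand): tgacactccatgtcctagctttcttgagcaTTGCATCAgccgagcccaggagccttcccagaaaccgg
Gars (chr6:55037941-55038000, plus strand): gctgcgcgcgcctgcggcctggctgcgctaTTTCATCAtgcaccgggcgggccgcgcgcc
Tars (chr15:11399659-11399703, minus strand): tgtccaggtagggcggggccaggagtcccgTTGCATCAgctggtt
The match began 23 bases before the start site in Asns, 15 in Tars, 30 in Gars, 102 in Got1, 112 in Aars and 193 in Chac1. Got1, an aminotransferase of aspartate, rose by 0.80 (SE 0.18), and Chac1, which breaks down glutathione, by 1.39 (SE 0.46) from a normal median of 3.30, under background.

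Aminoacyl-tRNA synthetases, which load amino acids onto transfer RNA, rose in 13 of 18 cases and fell in 0. Every one of the 18 had a difference above 0, from 0.15 to 1.13, and the median was 0.69. On average over the list the level was 9.09, 9.55 and 10.34 on the leukemic and 8.60, 9.04 and 9.60 on the normal arrays. Above every normal array lay 6 of 16 leukemic arrays, among them all 4 of run 2. Gars, the glycine enzyme, was at 9.59, 10.37 and 11.32 against 9.11, 9.57 and 10.18 and rose by 1.01 (SE 0.12, adjusted p = 7.76e-07, limma). Yars, the tyrosine enzyme, rose by 1.13 (SE 0.19), Iars by 0.93 (SE 0.14). Tars, the threonine enzyme, rose by 0.87 (SE 0.12) and Aars, the alanine enzyme, by 0.64 (SE 0.18). Hars (0.15, adjusted p = 0.222, limma) and Qars (0.17, adjusted p = 0.22) were not called. The call of Yars was lost without the run covariate.

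Amino acid transporters were a mixed group. Of 15 measured 3 rose, which is 20.0%, and 4 lay under background in both groups. Slc7a5, the large carrier of leucine and other neutral amino acids, was at 8.48, 9.61 and 10.39 on the leukemic and 7.04, 7.71 and 8.13 on the normal arrays. The groups did not overlap, and Slc7a5 rose by 1.94 (SE 0.20, adjusted p = 1.4e-07, limma). Its partner Slc3a2, the chain it needs at the cell surface, rose by 0.67 (SE 0.18, adjusted p = 0.00923), a call lost within run 1, without the run covariate and with the Gapdh difference as a covariate. Slc7a6, a carrier of cationic and neutral amino acids, rose by 1.13 (SE 0.15) on 15 of 16 arrays. The glutamine carrier Slc1a5 had a difference of -0.83 (SE 0.31, adjusted p = 0.0551), with 13 of 16 leukemic arrays below every normal array, and was called lower when any 1 of 7 arrays was left out.

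Enzymes that make purines, pyrimidines and folate units rose in 15 of 21 cases and fell in 1, with a median difference of 0.75. Their mean level was 9.56, 10.00 and 10.33 on the leukemic and 9.05, 9.28 and 9.76 on the normal arrays, and 11 of 16 lay above every normal array. Cad, which starts pyrimidine synthesis, was at 8.48, 9.41 and 10.02 against 7.14, 8.16 and 8.54 and rose by 1.38 (SE 0.18, adjusted p = 3.45e-06, limma). Aprt, which salvages adenine, rose by 1.78 (SE 0.24), and Impdh1, at the branch to guanine nucleotides, by 1.49 (SE 0.27). Shmt1, the cytosolic serine and glycine enzyme, rose by 1.53 (SE 0.24) on 15 of 16 arrays. The naming rule also takes the 2 uncalled members with the highest mean level, here Rrm1 and Dck. The ribonucleotide reductase chain Rrm1 differed by 0.01 (SE 0.14) and the salvage kinase Dck by -0.32 (SE 0.14, adjusted p = 0.116, limma). Both were named because they were not called, which says nothing about deoxynucleotide enzymes as a group.

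Genes of mitochondrial respiration and of the proteasome rose by smaller amounts. Of 43 oxidative phosphorylation genes 28 rose and 0 fell, with differences from -0.13 to 0.57 and a median of 0.32. The groups overlapped: the list mean was 10.96, 11.23 and 11.60 on the leukemic and 10.77, 11.06 and 11.44 on the normal arrays. The 4 of 16 leukemic arrays above every normal array were the 4 of run 2, and the highest normal array was also of run 2. The number of genes called higher was 9 without the run covariate and 9 with the Gapdh difference as a covariate. Cox5a, a subunit of cytochrome oxidase, rose by 0.50 (SE 0.07, adjusted p = 1.43e-05, limma) and the ATP synthase chain Atp5b by 0.46 (SE 0.06), a call lost without the run covariate. Another cytochrome oxidase subunit, Cox5b, differed by 0.13 (SE 0.07, adjusted p = 0.225), and its other probe sets ranged from -0.70 to 0.19. Of 30 proteasome genes 18 rose and 0 fell (median 0.29), 10 without the run covariate and 7 with the Gapdh difference. Psma7, a chain of the core particle, rose by 0.74 (SE 0.10) and Psmd1, a chain of the regulatory particle, by 0.52 (SE 0.08). Psmd7 rose by 0.66 (SE 0.16), but its 2 other probe sets lay at -0.18 and -0.03.

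Chaperones of the cytosol and mitochondria rose in 12 of 22 cases and fell in 0, with a median of 0.37. Hspa9, the mitochondrial member of the Hsp70 family, was at 11.40, 11.93 and 12.20 on the leukemic and 10.60, 10.74 and 11.28 on the normal arrays, with no overlap. It rose by 1.11 (SE 0.09, adjusted p = 5.56e-09, limma), while its 3 other probe sets ranged from -0.10 to 0.90. Hspd1, the mitochondrial chaperonin, rose by 0.93 (SE 0.14), and Cct6a and Cct3, chains of the cytosolic chaperonin, by 0.85 and 0.81. The constitutive Hsp70 gene Hspa8 did not pass (-0.08, SE 0.05, adjusted p = 0.253). In the endoplasmic reticulum the picture was split: 8 of 25 genes rose and 4 fell, and 3 rose and 3 fell with the Gapdh difference as a covariate. Sdf2l1, a chaperone partner, rose by 1.36 (SE 0.21). Herpud1, which serves the removal of misfolded proteins, fell by 1.02 on the log2 scale on 15 of 16 arrays, and the co-chaperone Dnajb9 fell by 1.05. The main chaperone of this compartment, Hspa5, differed by 0.23 (SE 0.11, adjusted p = 0.155).

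Cholesterol synthesis rose in 11 of 19 genes and fell in 0, with a median of 0.49. The list mean was 7.76, 8.33 and 8.68 on the leukemic and 7.45, 7.85 and 8.05 on the normal arrays, and 15 of 16 leukemic arrays lay above every normal array. Cyp51, which removes a methyl group from lanosterol, was at 7.81, 8.92 and 9.99 against a normal median of 7.52 and a highest normal value of 7.62. The groups of Cyp51 did not overlap (1.49, SE 0.20, adjusted p = 6.18e-06, limma). Sqle, which puts oxygen on squalene, rose by 1.28 (SE 0.23) and Fdps, which makes farnesyl diphosphate, by 1.38 (SE 0.21), but the other probe set of Fdps lay at -0.04. The entry enzyme Hmgcs1 did not pass (0.15, SE 0.11, adjusted p = 0.383). With the Gapdh difference as a covariate 7 of the 19 rose.

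The letters CCAAT, the core bound by the factor NF-Y, were present in all 15 cholesterol genes that had a promoter window, called or not, against 4179 of 9882 measured genes (42.3%). They were also in 19 of 22 genes of the endoplasmic reticulum list (86.4%) and in 19 of 24 mitosis genes (79.2%), a list that was not raised. The match is in capitals in 3 of the called cholesterol genes, and ATTGG is the same motif on the other strand.
Cyp51 (chr5:4104698-4104756, minus strand): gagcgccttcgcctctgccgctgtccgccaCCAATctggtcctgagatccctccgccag
Idi1 (chr13:8885531-8885595, plus strand): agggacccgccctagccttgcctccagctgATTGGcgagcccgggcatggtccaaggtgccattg
Lss (chr10:76531513-76531577, plus strand): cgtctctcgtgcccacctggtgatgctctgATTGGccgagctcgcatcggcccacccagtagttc
Idi1, which isomerises isopentenyl diphosphate, rose by 0.90 (SE 0.15) on 14 of 16 arrays, and Lss, which closes the sterol rings, by 0.85 (SE 0.25).

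Of 21 genes that make or handle fatty acids 7 rose and 1 fell, and 3 rose with the Gapdh difference. Fasn, the fatty acid synthase, was at 7.75, 8.32 and 9.33 on the leukemic and 6.31, 6.79 and 7.79 on the normal arrays. It rose by 1.70 (SE 0.16, adjusted p = 2.67e-08, limma) with 15 of 16 arrays above every normal array. The desaturases Fads2 and Fads1 rose by 1.12 and 0.98. Acly, which supplies the acetyl units, did not pass (-0.05, SE 0.05, adjusted p = 0.537). Of 24 redox and pentose phosphate genes 9 rose and 3 fell, and 3 and 1 with the Gapdh difference. The pentose phosphate enzyme Tkt rose by 0.79 (SE 0.09), the mitochondrial dismutase Sod2 by 0.76 (SE 0.13) and the thioredoxin reductase Txnrd1 by 0.59 (SE 0.11). Txnip, which binds thioredoxin and limits glucose uptake, fell by 0.94 on the log2 scale, with 12 of 16 arrays below every normal array.

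Few genes of the cell division machinery were called higher, and part of them fell. Of 30 DNA replication genes 1 rose and 0 fell, and the median difference was 0.02. Pcna, the sliding clamp, was at 11.95, 12.74 and 12.89 on the leukemic and 12.59, 12.83 and 13.05 on the normal arrays (-0.14, SE 0.09, adjusted p = 0.313, limma). Of 29 mitosis and spindle genes 8 fell (27.6%, against 9.76% of all genes lower) and 0 rose. All 29 differences lay below 0, from -0.68 to -0.01, with a median of -0.35. The list mean was 9.20, 10.23 and 10.73 on the leukemic and 10.16, 10.53 and 10.90 on the normal arrays, and 7 of 16 lay below every normal array. Those 7 arrays were all of run 1, as was the lowest normal array. Of the 8 falls, 4 kept their call in every fit that left out 1 array. Within run 1 alone 3 of the 29 fell (median -0.45), and within run 2 alone 3 fell (median -0.20). With the neutrophil and monocyte markers as a covariate 17 of the 29 fell, and with the Gapdh difference 8 fell.

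Prc1, which bundles the microtubules of the spindle midzone, was at 10.32, 11.16 and 11.43 against 11.26, 11.63 and 11.93 and fell by 0.52 on the log2 scale (SE 0.12, adjusted p = 0.00171, limma). Kif23, a motor of cytokinesis, and Nusap1, which stabilises spindle microtubules, also fell by 0.52. Top2a, which untangles chromosomes, did not pass (-0.34, SE 0.13, adjusted p = 0.0599), and nor did Birc5 (-0.15, SE 0.10, adjusted p = 0.329). Among 25 repair genes 3 rose and 2 fell, shares near those of all genes, and 1 rose and 0 fell with the Gapdh difference. Apex1, which cuts DNA at sites without a base, was at 10.44, 11.09 and 11.67 against 9.43, 9.74 and 10.05, with no overlap (1.35, SE 0.12, adjusted p = 1.15e-08). Xrcc6, the Ku70 chain that holds DNA ends during joining, fell by 0.86 on the log2 scale, a call lost with the Gapdh difference and within run 1. Of 21 DNA methylation and Polycomb genes 3 fell and 0 rose, among them the Polycomb cofactor Jarid2 (-0.86, SE 0.20), whose call was lost with the Gapdh difference, without the run covariate and within run 1, and the ubiquitin ligase Rnf2 (-0.38, SE 0.10), whose other probe sets ranged from -0.45 to 0.21. The maintenance methylase Dnmt1 differed by -0.13 (SE 0.07, adjusted p = 0.188).

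**Figure D4:**
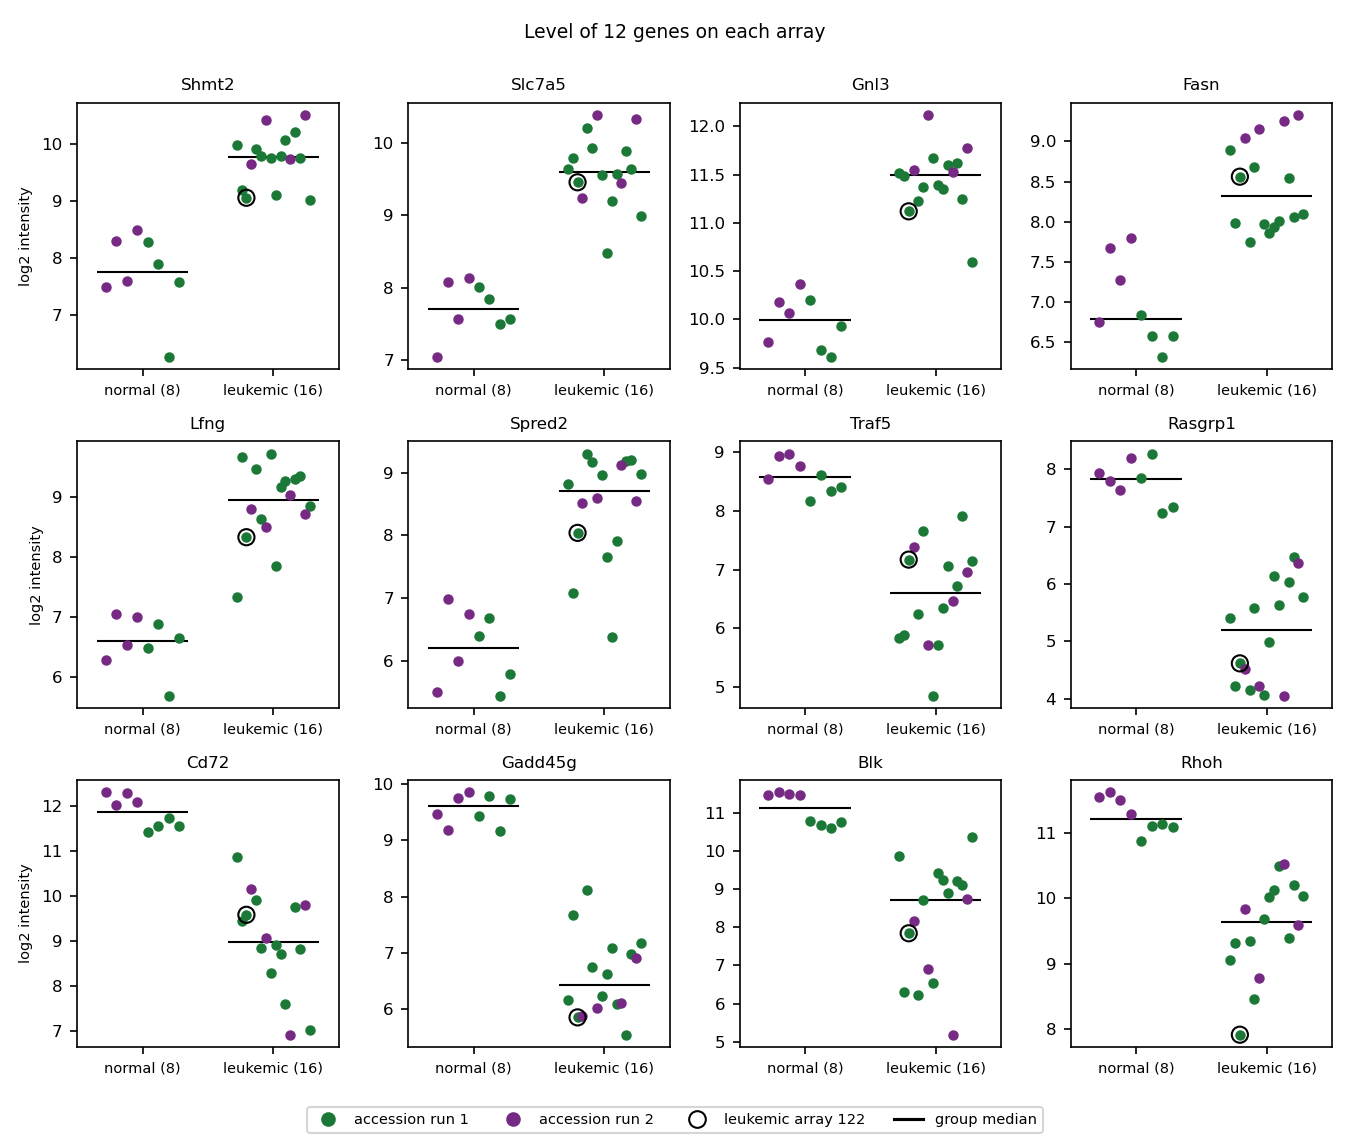
Levels (log2 intensity) of 12 genes on each of the 8 normal and 16 leukemic arrays, coloured by accession run, with the group median as a line and leukemic array 122 circled. In Shmt2, Slc7a5, Gnl3 and Lfng the leukemic arrays lay above every normal array, in Fasn and Spred2 15 of 16 did, and in the other 6 genes all 16 lay below.

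Most genes of the signalling lists were not called. The PI3K, FOXO and mTOR list carries growth factor signals to protein synthesis and holds FOXO targets that are off while the pathway is on. Of its 28 genes 10 fell and 2 rose (median -0.33), and the list mean lay below every normal array on all 16 leukemic arrays (8.04, 8.69 and 8.93 against 8.93, 9.01 and 9.19). Ccng2, a cyclin induced by FOXO factors, was at 9.14, 9.48 and 10.20 against 10.21, 10.57 and 10.96, with no overlap (-1.11, SE 0.11, adjusted p = 7.49e-08, limma). Klf6 fell by 1.12 and the PI3K adaptor Pik3ap1, which couples B-cell receptors to the kinase, by 1.07. Eif4ebp1, which holds back cap-dependent translation and is inactivated by mTOR, rose by 0.77 (SE 0.17), a call lost without the run covariate and within run 1. Trib2 differed by -1.18 (SE 0.58, adjusted p = 0.161), with array 122 at 5.01, and was called without that array (-0.89, adjusted p = 0.0252).

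In the NF-kappaB and TNF receptor list 10 of 27 genes fell (37.0%, against 9.76% of all genes lower) and 1 rose, with a median of -0.29. The list mean was lower than on every normal array on 13 of 16 leukemic arrays, and array 122 was the highest of all at 8.26. Traf5, an adaptor of TNF receptors, was at 4.85, 6.60 and 7.92 on the leukemic and 8.17, 8.58 and 8.98 on the normal arrays. The groups of Traf5 did not overlap (-1.97, SE 0.31, adjusted p = 3.27e-05, limma). Cd40, a receptor for T-cell help, fell by 1.79 on 14 of 16 arrays. Nfkbie and Nfkbiz, which NF-kappaB itself induces, fell by 1.45 and 1.39. Ikbkb, the kinase that starts the pathway, differed by 0.05 (SE 0.12, adjusted p = 0.832), and its 3 other probe sets ranged from -0.51 to 0.35.

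Of 27 RAS and MAP kinase genes 5 rose and 5 fell. Rasgrp1, which loads RAS with GTP after antigen receptor signals, was at 4.04, 5.20 and 6.48 on the leukemic and 7.24, 7.83 and 8.28 on the normal arrays. It fell by 2.70 (SE 0.33, adjusted p = 1.52e-06, limma) with no overlap, and its 2 other probe sets also lay lower (-1.70 and -1.66). The inhibitors of RAS signalling Spred1 and Spred2 rose by 1.56 (SE 0.29) and 2.34 (SE 0.33). Spred2 was at 6.39, 8.70 and 9.30 against 5.45, 6.21 and 6.99, with array 227 the one inside the normal range, and its other probe set lay at 0.04. The phosphatase Dusp1 fell by 1.72, but its normal arrays were split. On pre-B8, pre-B2 and pre-B3 it was at 10.46, 10.33 and 9.86, within the leukemic range of 8.94 to 10.83. The other normal arrays lay at 11.8 to 12.4. Dusp6, a feedback phosphatase of ERK, did not pass (-0.27, SE 0.18, adjusted p = 0.333, limma), and nor did the adaptor Grb2 (-0.09).

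Of 27 phosphatases and inhibitory receptors 4 rose and 4 fell (14.8% each, against 12.5% and 9.76% of all genes). Pag1, which tethers the kinase Csk at the membrane, rose by 1.15 (SE 0.14) on 15 of 16 arrays, although its other probe set lay at 0.35. Dok3, an inhibitory adaptor of B cells, was at 8.47, 9.68 and 10.42 against 11.16, 11.39 and 11.78 and fell by 1.71 (SE 0.20, adjusted p = 7.86e-07, limma) with no overlap. The inhibitory coreceptor Cd72 was at 6.91, 8.99 and 10.88 against 11.43, 11.88 and 12.31, again with no overlap.

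Cytokine signalling had 3 of 32 genes higher and 4 lower. Il2ra, the CD25 chain that marks pre-B cells, was at 4.64, 6.81 and 9.33 on the leukemic and 9.24, 9.85 and 10.16 on the normal arrays. It fell by 3.19 (SE 0.41, adjusted p = 3.35e-06, limma), and array 228 alone reached the normal range. These shares, 9.38% and 12.5%, were near those of all genes, and 0 rose with the Gapdh difference as a covariate. Cish and Socs3, which inhibit cytokine signalling, rose by 1.80 (SE 0.51) and 1.55 (SE 0.46). Both calls were lost within run 1 and with the Gapdh difference, and that of Socs3 within run 2 as well. The largest values of Cish were 9.42 on A992 and 9.36 on A1507, and the lowest was 4.52 on array 116. Socs2 ranged from 8.34 to 12.90 among the leukemic arrays and did not pass (1.13, SE 0.58, adjusted p = 0.184). The survival kinase Pim2 fell by 1.28 (SE 0.16) on 13 of 16 arrays. In the list of Toll-like receptors and innate sensors 1 of 20 rose and 2 fell, with Tlr4, the receptor for endotoxin, higher by 1.72 (SE 0.42). That call was lost within run 1 and with the Gapdh difference, when 0 of the 20 genes were called.

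Of 28 Notch and Wnt genes 2 rose and 7 fell, and 1 rose and 4 fell with the Gapdh difference. Lfng, which adds sugar to Notch receptors, was at 7.33, 8.94 and 9.72 on the leukemic and 5.68, 6.59 and 7.05 on the normal arrays. Its groups did not overlap (2.31, SE 0.26, adjusted p = 4.78e-07, limma), but its other probe set differed by 0.35. The Notch target Dtx1 and its relative Dtx3 fell by 1.77 and 1.64. Notch2, a receptor of mature B cells, fell by 1.38 (SE 0.33), while its other probe set lay at -0.03 and the call was lost without the 5 pIpC arrays. Arrays A46, 270 and 17 were the lowest for Notch2, at 8.52, 8.88 and 8.92. The Wnt effector Ctnnb1 did not pass (SE 0.06, adjusted p = 0.972), with leukemic and normal medians of 12.43 and 12.36.

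Genes of adhesion and movement were lower in part. Of 28 adhesion and homing receptors 6 fell and 1 rose, and 3 fell with the Gapdh difference. Cxcr4, which holds precursors in the marrow, was at 11.97, 12.26 and 12.69 against 12.46, 12.73 and 13.03 and fell by 0.51 on the log2 scale (SE 0.07, adjusted p = 1.59e-05, limma). Icam2 fell by 0.76 and the focal adhesion kinase relative Ptk2b by 0.71, each on 13 of 16 arrays. Of 33 genes of the cytoskeleton and motility 11 fell and 2 rose, and 3 and 1 with the Gapdh difference. Rhoh, a small GTPase of blood cells, was at 7.91, 9.63 and 10.53 against 10.88, 11.21 and 11.62 (-1.65, SE 0.26), and array 122 held the lowest value. Marcks, which binds actin at the membrane, also lay below every normal array on all 16 (-2.14, SE 0.51), with A46 and 17 far below the rest at 5.55 and 6.79. Ezrin (Ezr), which links actin to the membrane, rose by 0.78 (SE 0.17), but its other probe set lay at 0.13. Actin itself (Actb) did not pass (-0.17, SE 0.07, adjusted p = 0.0665).

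Of 29 lysosome and autophagy genes 6 fell and 1 rose, and 2 fell and 4 rose with the neutrophil and monocyte markers as a covariate. The protease Ctsl fell by 2.44 and the autophagy gene Gabarapl1 by 1.57, and both calls were lost with that covariate. Gabarapl2 fell by 0.53 on 13 of 16 arrays and kept its call there. Of 12 genes of MHC class I and antigen processing 2 rose, Erap1 (1.20, SE 0.17), which trims peptides, and the proteasome activator Psme1 (0.61, SE 0.11), and 1 fell. The class I chains H2-K1 and H2-D1 did not pass (-0.30 and -0.21, adjusted p = 0.0523 and 0.111) and were called lower without array 122, when 3 of the 12 fell. H2-K1 was also called without array 116 (-0.31), when 2 fell.

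Transcription factors outside the Hoxa cluster changed in few cases. Of 29 other homeobox genes 1 rose and 2 fell, with 7 under background in both groups. Zeb2, a repressor with a role in B-cell development, fell by 1.10 (SE 0.20) on 15 of 16 arrays. The B-cell coactivator Pou2af1 ranged from 8.54 to 12.55 and was not called (-0.49, SE 0.33, adjusted p = 0.342), but was called lower without array 122 (-0.31, adjusted p = 0.00534) and with the neutrophil and monocyte markers as a covariate (-1.02). Of 33 factors of other blood lineages 1 rose and 4 fell, and 7 fell without array 122. Klf4, a brake on B-cell proliferation, fell by 2.42 (SE 0.46), from a normal median of 10.47 to 7.33, with 12 of 16 arrays below every normal array. Its normal arrays were split, with pre-B8, pre-B2 and pre-B3 at 8.9, 8.5 and 8.6 and the others at 10.4 to 10.8. The highest leukemic value was 9.51 on array 117. Lyl1, a factor of blood stem cells, rose by 0.83 (SE 0.22), a call lost without the run covariate and within run 1.

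By a rule that used the size of the difference and 15 or more leukemic arrays beyond every normal array, 15 genes in each direction were named, and their order is a description. Pvt1, a long RNA gene next to Myc, was at 6.18, 6.84 and 7.49 on the leukemic and 3.55, 4.61 and 4.76 on the normal arrays and rose by 2.46 (SE 0.18, adjusted p = 1.06e-09, limma). Hopx, a homeodomain protein that does not bind DNA, rose by 2.71 (SE 0.49) on 15 of 16 arrays, with A46 at 4.97 the exception. Gbp7, an interferon-induced guanylate-binding protein, rose by 2.66 (SE 0.40), and array 116 at 7.75 was the only leukemic array in the normal range. Pdk1, which closes the entry of pyruvate to the mitochondrial cycle, rose by 2.33 (SE 0.28), again with array 116 as the exception at 8.60. Car12, a carbonic anhydrase of the cell surface, and the zinc importer Slc39a6 rose on all 16 arrays by 2.42 and 2.06. Alpl, an alkaline phosphatase, rose by 2.02 (SE 0.41) on 15 arrays, while array 122 at 5.86 lay below every normal array. Abhd15, Rab26os and Comtd1 rose by 2.40, 2.14 and 2.10.

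Among the named genes that fell, Gadd45g, a stress gene that slows division, was at 5.55, 6.43 and 8.11 on the leukemic and 9.16, 9.60 and 9.85 on the normal arrays. The groups did not overlap (-3.03, SE 0.26, adjusted p = 1.2e-08, limma). F5, coagulation factor V, was at 3.65, 4.50 and 5.89 against 7.50, 8.03 and 8.91 and fell by 3.62 (SE 0.26). Cav2, a caveolin, fell by 3.65 (SE 0.55), but its other probe set lay at -0.46. Lima1, which bundles actin, fell by 2.93 and both of its other probe sets lay lower too (-3.41 and -1.94). The B-cell kinase Blk was at 5.18, 8.73 and 10.38 against 10.61, 11.12 and 11.54, with the lowest value on array 270. Iglv1, a variable segment of the lambda light chain, ranged from 4.85 to 10.30 among the leukemic arrays and from 10.27 to 11.28 among the normal arrays. Ngp, a neutrophil granule protein, fell by 3.31 (SE 0.58), together with the markers of that lineage described next. The other falls were in Myzap (-3.51), Plaat3 (-3.30), Armcx2 (-3.23), Fmn2 (-3.17), Rgs10 (-3.06), Zfp354b (-2.91) and Fcrla (-2.91).

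Markers of the B stages and of other cells were read from the same arrays. Of the 11 B-lineage identity genes 4 fell and 0 rose: Ly6d (-2.67), Blnk (-1.90), Cd79b (-0.74) and Cd24a (-0.39). With the Gapdh difference as a covariate 1 fell, and within run 1 alone 0. Without array 122 it was 6, and the pre-B protein Vpreb3 was then also lower (-0.20, adjusted p = 0.0103). Cd79b fell by 0.61 without that array. Of 8 markers of the pre-B and immature stages 5 fell, and 13 of the 15 arrays other than 122 had a list mean below every normal array. The surrogate light chain genes of the earlier stage went the other way: Vpreb1 rose by 1.14 (SE 0.35) and by 1.33 without array 122, but its call was lost within run 1, with the Gapdh difference, with the neutrophil and monocyte markers and without the 5 pIpC arrays. Igll1, not called with all arrays (1.17, SE 0.44, adjusted p = 0.0579), rose by 1.40 without it, although its other probe set lay at -0.58. Of the 10 pro-B markers 1 rose and 2 fell (10.0% and 20.0%, against 12.5% and 9.76% of all genes). Without array 122, 2 rose. Of the 10 differences 6 lay above 0 and 4 below. Dntt had a median of 5.64 on the leukemic arrays other than 122 and of 9.84 on the normal arrays. For Rag1 these medians were 10.47 and 11.71, for Rag2 8.64 and 9.33, and for Bst1 7.84 and 9.42. Kit, the stem cell factor receptor of pro-B cells, had levels above 10 on arrays 153, 224 and 226 and from 2.60 to 8.46 on the other 13.

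Of 16 neutrophil and monocyte markers 6 fell and 0 rose (median -1.16), 4 had a difference above 0, and 10 of the 15 leukemic arrays other than 122 had a list mean below every normal array. S100a8, a cytosolic protein of neutrophils, was at 5.14, 9.35 and 11.71 on the leukemic and 10.91, 12.29 and 12.46 on the normal arrays. Csf1r had the higher median in the leukemic cells (7.91 against 5.43) and was not called. Of 10 plasmacytoid dendritic cell markers 9 were measured and 3 fell, of 6 plasma cell markers 2 fell, and of 14 T and NK markers 3 fell and 1 rose. Among eosinophil, basophil and mast cell markers 3 of 8 fell, and 5 without array 122. The remaining lists had 0 rises, with 2 of 10 erythroid and megakaryocyte markers lower (1 without array 122 or 116) and 1 of 10 stroma and endothelium markers lower. The list means ran from 6.09 to 9.41 on leukemic and 6.33 to 8.58 on normal arrays for the plasmacytoid list, from 7.03 to 9.44 for plasma cells on leukemic arrays, against a normal median of 8.79, and from 4.59 to 7.07 and 5.22 to 5.78 for T and NK cells. They ran from 3.85 to 6.29 and 4.31 to 5.65 for the eosinophil list, from 4.50 to 5.46 and 4.73 to 5.27 for the erythroid list, and from 4.31 to 5.52 in the leukemic and 4.32 to 5.52 in the normal group for stroma. The part of these cells in the falls of NF-kappaB, lysosome and cytoskeleton genes was not tested beyond the covariate fit, which left 9, 2 and 7 genes lower in those lists.

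The leukemic arrays varied more among themselves than the normal arrays. After the run means were taken off, the median SD over 9914 genes above background was 0.42 in the leukemic and 0.26 in the normal group, and 80.9% of the genes had the larger SD in the leukemic group (79.3% without array 122). The 8 genes with the largest leukemic SD are given as a description. Enpep, an aminopeptidase known as the BP-1 antigen of early B cells, was near 10.57 at the median and at background on arrays 116 and 122, with 5.62 on array 154. Cbln1, a secreted protein better known from the brain, reached 12.54 on A992 and 11.22 on array 154, against at most 4.52 on normal arrays. Csf1r, the receptor for the macrophage growth factor, was at 12.17 on array 117, 11.63 on 122 and 11.01 on 153, and at 3.68 on 154. Ifitm3, an interferon-induced membrane protein, was at 12.57 on array 122 and 12.05 on array 117. Prss23, a secreted protease, was above 8 on 6 arrays (224, 227, 228, 270, A46 and 17) and under background on 6 others, and its call was lost without A46 or without 17. Hoxa10 lay at 3.23 on array 154 and above 9 on 8 arrays. Mpo and Ctsg ranged from 3.67 to 12.03 and from 3.49 to 12.35.

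With the Gapdh difference as a covariate the calls of Fads1, Txnip, Psmd7, Notch2, Ctsl, Gabarapl1, Marcks, Prss23, Cd24a and Cd79b were lost as well. Without the run covariate those of Gabarapl1, Psme1 and Prss23 were lost, without the 5 pIpC arrays those of Gabarapl1, Prss23 and Cd79b, and with the mean of all probe sets those of Psmd7, Nusap1 and Rnf2. The call of Cct3 was lost without probe sets ending in _x_at, _s_at or _a_at, and that of Prss23 with the myeloid covariate. Within run 1 alone the calls of Alpl, Fmn2, Rgs10, Bcat1, Impdh1, Fads2, Fads1, Txnip, Nusap1, Rnf2, Cd40, Dtx1, Dtx3, Notch2, Ptk2b, Ctsl, Gabarapl1, Gabarapl2, Hoxa10, Prss23, Cd24a, Cd79b and S100a8 were lost. Within run 2 alone those of Hopx, Sqle, Psmd7, Dnajb9, Kif23, Prc1, Pik3ap1, Marcks, Hoxa10 and Prss23 were lost.

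The Gapdh difference also changed counts of further lists. It left 3 RAS and MAP kinase genes, 2 phosphatases and inhibitory receptors and 3 pre-B and immature markers lower, and 0 pro-B, T and NK and plasma cell markers called. Of the homeobox genes 0 rose and 1 fell, of the MHC class I genes 0 fell, of the lysosome and autophagy genes 0 rose, and in the DNA replication list 0 rose and 1 fell. In the PI3K list 1 rose, 0 purine, pyrimidine and folate genes fell, and 1 chaperone fell. Without array 122 or without array 116, 2 purine, pyrimidine and folate genes and 1 chaperone fell. The DNA replication list had 2 rises without array 122 and 0 without 116, and 1 repair gene fell without 122.

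The number of called genes that lay beyond every normal array differed between the leukemic arrays. Of the 1547 higher genes, between 446 (array 226) and 1380 (A46) lay above every normal array on a single leukemic array. The 4 arrays of run 2 had 1319 to 1380 and the 12 of run 1 had 446 to 1054. Of the 1209 lower genes, 698 to 957 lay below every normal array. Array 226 had the fewest genes above the normal range, but its 896 genes below were within the span of the others.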

How the data were processed

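The authors deposited 1 intensity per probe set and array on a linear scale, and the submitters' processing notes name RMA without a version. Whether all 39 arrays were normalized together is not given in the sources used here. Values were taken to log2 with no offset. Of 22690 probe sets, 64 controls, 691 with several gene symbols and 1555 with none were left out, and 12393 genes remained, each read from 1 probe set, the brightest on average across all 39 arrays. The 24 arrays were fitted with limma 3.58.1 in R 4.3.3 (lmFit, eBayes with an intensity trend, group plus accession run), with Benjamini-Hochberg adjustment over all genes, and the fit was tested on simulated data. The run is a division of the accessions that no label names as a batch.

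The gene lists, markers and rules were chosen with earlier results of these data known. Named genes are up to 15 per direction by size, with predicted genes and those described elsewhere left out. They needed at least 15 leukemic arrays beyond every normal one and a mean above background in at least 1 group. Their call also had to be kept in every fit without 1 array. Up to 4 called members per list were named by size, with only this last condition. Up to 2 uncalled members per list were named by highest mean level. The 8 most variable genes and up to 3 markers per cell type were named too. Genes given beside promoter windows, B-lineage markers and genes on array 122 outside these rules were chosen after their values were seen. Arrays have no read depth, and their number limits the precision. Promoter windows are from RefSeq and were not used for any test.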

Additional observations from a re-analysis of the deposited data

Results flagged for a closer look

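Among 220 named genes and 39 list means, 6 had 1 of the 8 normal arrays far from the other 7, and chance alone flags about 1 in 20 such groups. The gap of that array to the nearest other, as a share of the range, was 0.650 for Pvt1 (pre-B6 at 3.55), 0.553 for Shmt2 (pre-B7 at 6.25), 0.640 for Dtx3 (pre-B6 at 8.35), 0.589 for Klra17 (pre-B2 at 4.78), 0.716 for Jchain (pre-B2 at 5.23) and 0.574 for the mean of the plasma cell list (pre-B2 at 8.04). Klra17 is in the plasmacytoid dendritic list and Jchain in the plasma cell list, and both were low on pre-B2. The differences of Pvt1, Shmt2 and Dtx3 were called in every fit that left out 1 array.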

How the results depend on the processing

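The count of called genes moved by more than 1.5 times under a pair of alternatives. Run 1 alone gave 1001 genes (617 higher, 384 lower), with fewer samples, and the Gapdh 3'/5' difference as a covariate gave 1550 (768 higher, 782 lower), where the cause was not tested. Of the 2756 genes, 1482 were also called with that covariate. Leaving out 1 array gave 2339 to 3316 genes (1269 to 1878 higher, 963 to 1438 lower). The other counts were 1987 without the run covariate, 1968 in run 2 alone, 2976 after quantile normalization, 2775 without the dimmest 40% of genes, 2662 with the mean of all probe sets, 2170 without probe sets ending in _x_at, _s_at or _a_at, 3399 with all 39 arrays in 1 fit, 2710 without the intensity trend, 2780 without array 116, 2088 without the 5 pIpC arrays and 2949 with the neutrophil and monocyte markers. Of 220 named genes, 144 were called. Calls were lost in 48 within run 1, 32 with the Gapdh difference, 20 within run 2 and 13 without the run covariate. Cox5b, not called at 0.127, reversed to -0.698 (adjusted p = 0.0114, limma) without probe sets ending in _x_at, _s_at or _a_at, which read it from another probe set. No paired analysis was possible because the numbers in the titles of the leukemic and normal arrays have none in common. Levels near background limit the size of falls to that level.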
